A study of Mus musculus with 6 samples.

Results

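The serpins are a family of proteins named for their inhibition of serine proteases, and they were followed here in single cells of the lower abdominal muscle (LAM) of male mice. The members were all genes whose symbol begins with Serpin, which gave 30 of the 16494 genes in the deposited table of counts. The series compared 3 wild-type (WT) mice with 3 Arom hum (Arom) mice, all male, on the FVB/N strain and 9-10 weeks old. Arom hum mice carry the human aromatase gene CYP19A1, which makes estrogen from androgen, with its own promoter region, and the labels give Scrotal Hernia as their disease, while the WT mice carry no transgene. Each mouse gave 1 library made with the 10x Genomics 3′ method, in which the 3′ end of each captured RNA molecule is counted once through a unique molecular identifier (UMI). The transgene acts in any cell that uses its promoters, so a difference between the groups cannot be assigned to aromatase in a given cell type, and no label ties the mouse numbers to a litter or a day. The study's methods state that each processing date took a single WT mouse and its Arom littermate, without saying which numbers share a date.

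A serpin offers a reactive loop to its target protease, and after the loop is cleaved the serpin folds upon itself and traps the enzyme. Members of clade A include antitrypsin-like and antichymotrypsin-like secreted inhibitors, many of them acute-phase proteins of the liver. Clade B members stay mostly inside the cell and guard it against granule and lysosomal proteases. Clades C, D, E and F hold regulators of coagulation and of plasmin, clade G holds the C1 inhibitor of complement, clade I holds neuroserpin, and clade H holds a collagen chaperone that inhibits no protease. In skeletal muscle and its connective tissue the secreted members are made largely by stromal cells.

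The 6 libraries held 63647 cell barcodes, with 64958237 to 72876541 UMIs per WT library and 92652109 to 111826460 per Arom library, so that the Arom libraries were the deeper ones. CYP19A1 had 0 UMIs in each WT library and 770, 797 and 787 UMIs in the Arom libraries. Libraries shared 471 barcode sequences, carried by 943 barcodes. The share of barcodes above 5% mitochondrial UMIs was 38.0%, 68.2% and 40.1% in WT mice and 27.6% to 30.9% in Arom mice. Cells were grouped without using any Serpin gene, and 15 classes could be named from marker genes, of which 14 had enough cells in every mouse to be tested, together with 9 subgroups of fibroblast-like and endothelial cells. A further 4006 cells stayed unnamed. Levels are given as CPM, the UMIs of a gene per 1000000 UMIs of a class in a mouse, and changes as log2 fold changes of Arom over WT from edgeR with their standard error (SE). A change was called at an adjusted p below 0.05.

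The table listed 9 members at 0 in at least 1 whole library, and 6 of them in all WT libraries (Serpinb5, Serpinb9b, Serpinb1b, Serpina11, Serpina3f and Serpina3i). The remaining such members were Serpinb7, listed at 0 in Arom mice 1 and 2, Serpinb1c, listed at 0 in WT mouse 3, and Serpind1, listed at 0 in Arom mouse 3. In each library, 99% of the genes above 0 had UMIs in at least 20 to 26 barcodes, and 2362 of all genes were at 0 in some library, so these members are described as listed at 0 and given no fold change. Of the 30 members, 28 had enough counts to be tested in some class or subgroup and 21 had a UMI in every mouse. The members Serpina11, Serpina3f, Serpina3i, Serpina3m, Serpinb1b, Serpinb5, Serpinb7, Serpinb9b, Serpinc1 and Serpinf2 stayed below a mean of 10 CPM in every class, with no call outside the genes listed at 0.

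The members lie mostly in clusters of neighbouring genes. In the mouse assembly GRCm38, 9 clade A members span 686 kb of chromosome 12, 8 clade B members span 1161 kb of chromosome 13, and Serpinf1 and Serpinf2 are neighbours on chromosome 11. Copies within a cluster are similar in sequence, and the gene model of Serpina1b (chromosome 12, 103728156 to 103830373, minus strand) overlaps that of Serpina1d (103763594 to 103773592, minus strand), so reads could be split between them and their values are uncertain. The same care applies to the Serpina3, Serpinb1, Serpinb6 and Serpinb9 copies.

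The 250 bases before the RefSeq start of 4 members are shown because the results turn on these genes. Serpina1b and Serpina1d shared 223 of 238 aligned bases (93.7%) and their windows are chr12:103738190-103738439 and chr12:103773634-103773883 on the minus strand of GRCm38.p6. The windows of Serpina3n (chr12:104406458-104406707) and Serpinb2 (chr1:107511173-107511422) lie on the plus strand. Capitals mark TGACTCA, the AP-1 motif, in the first pair and TATAAA, the TATA box motif, in Serpinb2, and neither motif was found in the Serpina3n window.
Serpina1b: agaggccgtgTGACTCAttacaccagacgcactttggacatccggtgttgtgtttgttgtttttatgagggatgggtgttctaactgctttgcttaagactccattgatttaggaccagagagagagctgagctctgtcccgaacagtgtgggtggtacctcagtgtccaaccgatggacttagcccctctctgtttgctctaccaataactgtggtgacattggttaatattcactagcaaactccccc
Serpina1d: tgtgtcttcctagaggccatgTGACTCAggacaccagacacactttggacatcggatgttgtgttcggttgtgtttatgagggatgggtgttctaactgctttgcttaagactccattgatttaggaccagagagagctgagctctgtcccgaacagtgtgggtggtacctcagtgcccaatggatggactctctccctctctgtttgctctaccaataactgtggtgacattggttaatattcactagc
Serpina3n: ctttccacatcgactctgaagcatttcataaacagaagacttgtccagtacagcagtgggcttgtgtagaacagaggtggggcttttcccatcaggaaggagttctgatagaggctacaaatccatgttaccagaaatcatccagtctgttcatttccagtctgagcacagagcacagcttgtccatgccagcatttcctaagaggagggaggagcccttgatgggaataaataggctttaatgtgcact
Serpinb2: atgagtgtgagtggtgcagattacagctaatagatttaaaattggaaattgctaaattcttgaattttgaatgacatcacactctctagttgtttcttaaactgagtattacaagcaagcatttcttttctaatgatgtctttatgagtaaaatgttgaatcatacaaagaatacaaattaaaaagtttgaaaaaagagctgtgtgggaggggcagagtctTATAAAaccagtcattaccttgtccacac

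Such windows were at hand for 26 of the 30 members and were searched on both strands. TGACTCA occurred in those of 4 members (Serpina1b, Serpina1d, Serpinb7 and Serpinb8) and in 4.46% of 32851 windows of all genes. TATAAA occurred in 5 members (Serpina3c, Serpina3f, Serpinb1c, Serpinb2 and Serpinb7) and in 12.4% of all windows. The palindromic estrogen response element, GGTCA and TGACC with 3 bases between them, was in none of the 26 member windows and in 0.0639% of all windows, so its absence from this short stretch says nothing about the receptor.

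A few secreted members and one chaperone made up most of the serpin RNA. Serping1, the C1 inhibitor, held 32.6% of all serpin UMIs and Serpinf1, pigment epithelium-derived factor, held 25.0%. Serpinh1, the collagen chaperone HSP47, held 13.5%, Serpinb6a, an intracellular inhibitor of granule proteases, held 11.8%, and Serpina3n, an inhibitor of granzyme B and cathepsin G, held 6.20%. Fibroblast-like cells contained 73.1% ± 7.57 (SD, n = 6 mice) of the family's UMIs. The family took 0.466%, 0.338% and 0.300% of all UMIs in WT mice and 0.579%, 0.584% and 0.489% in Arom mice, so the groups did not overlap, and the share of barcodes in fibroblast-like cells moved the same way, from 34.7%, 22.2% and 19.8% to 40.6%, 49.3% and 38.3%. In sums over a whole library, more cells of a type and more RNA per cell cannot be told apart.

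**Figure D1:**
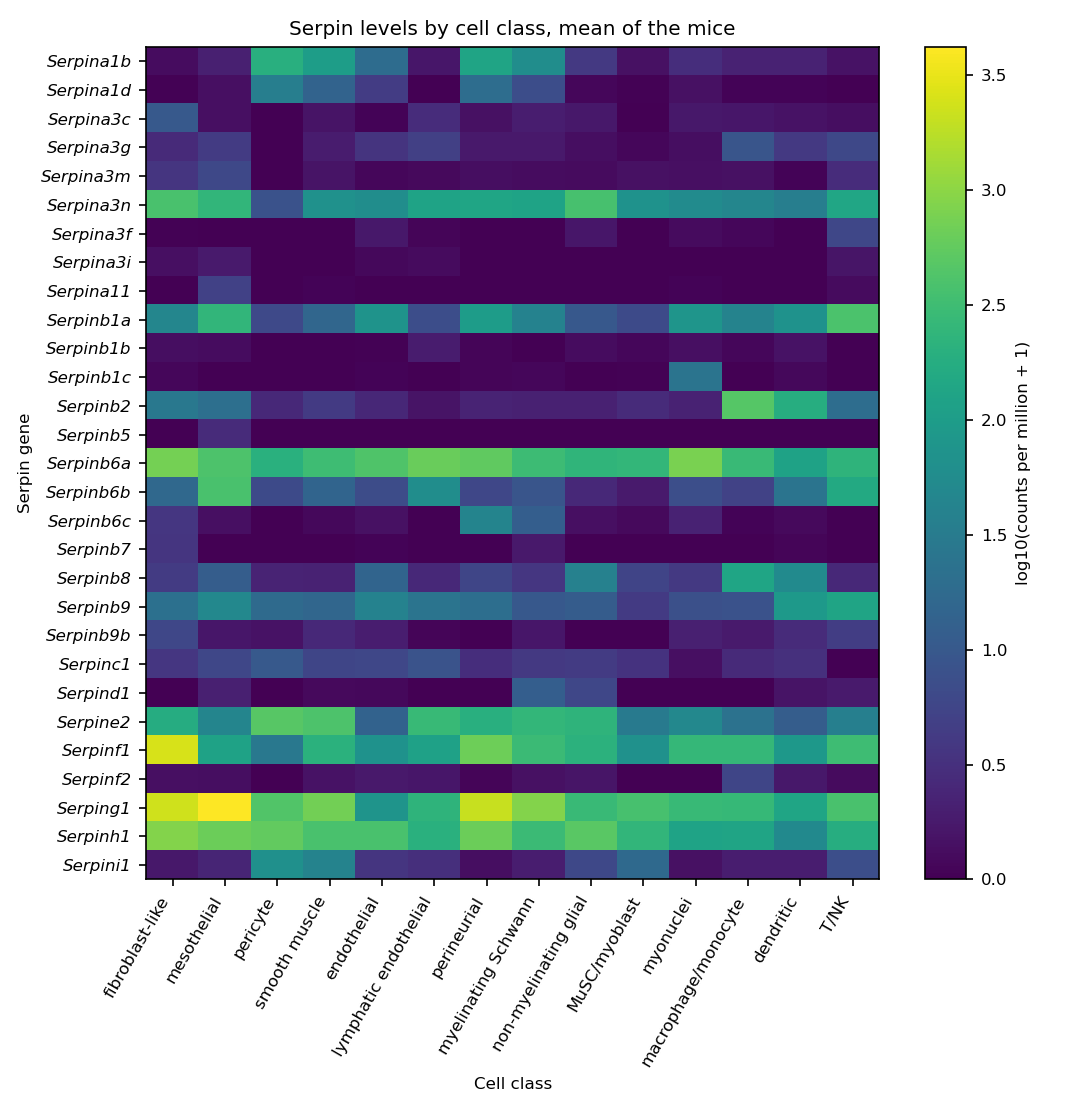
Mean level of Serpin genes in 14 cell classes over the mice, as log10 of CPM plus 1; the vertical axis lists genes and the horizontal axis cell classes. Serping1 in mesothelial cells and Serpinf1 in fibroblast-like cells are the brightest fields, and Serpinb1c is visible in myonuclei alone.

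Most members had a home class, which is described here without a test. Serping1 was highest in mesothelial cells at 4207 ± 950 CPM (SD, n = 6 mice), followed by fibroblast-like cells at 2316 ± 378 CPM and perineurial cells at 2095 ± 344 CPM, the latter 2 within their spread of each other. Serpinf1 stood at 2520 ± 602 CPM in fibroblast-like cells, with tenocytes highest among the subgroups at 4312 ± 674 CPM, against 664.5 ± 64.8 CPM in perineurial cells as the next class. Serpinh1 was highest in fibroblast-like cells at 879 ± 140 CPM. Serpina3n reached 381 ± 270 CPM in fibroblast-like cells and 370 ± 120 CPM in non-myelinating glial cells over the mice. The order of these classes differed between the groups, since the glial cells were higher in every WT mouse, at 209.8 to 322 against 159 to 216 CPM, and lower in Arom mice 1 and 2, at 366 and 557 against 679.7 and 771 CPM.

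Serpine2, neuroserpin and the antitrypsins were high in mural cells, the contractile cells around vessels, though not in these cells alone. Serpine2, protease nexin 1, was highest in pericytes at 475 ± 407 CPM over the mice, while in each WT mouse it was higher in lymphatic endothelial cells, at 238 to 323 CPM against 149 to 249.9 CPM. Serpini1, neuroserpin, stood at 65.2 ± 10.6 CPM in pericytes and 40.8 ± 13.4 CPM in smooth muscle cells. Serpina1b, an antitrypsin, reached 189 ± 146 CPM in pericytes, and its near copy Serpina1d reached 34.1 ± 36.7 CPM in the same cells. With the cells of all mice pooled, Serpina1b also stood at 105.7 CPM in perineurial cells and 89.5 CPM in arterial endothelial cells, and Serpina1d at 15.6 and 18.75 CPM. The spread of Serpine2, Serpina1b and Serpina1d over the mice was large beside their mean.

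The clade B members were spread over leukocytes, lining cells and muscle. Serpinb2, plasminogen activator inhibitor 2, was highest in macrophages and monocytes at 464 ± 363 CPM and in dendritic cells at 182 ± 57.2 CPM. Serpinb8, an inhibitor of furin, was also highest in macrophages at 132 ± 31.5 CPM. T and NK cells were highest for Serpinb1a, an inhibitor of neutrophil elastase, at 392 ± 183 CPM and for Serpinb9, the granzyme B inhibitor, at 130 ± 55.3 CPM, which these cells use to survive their own granules. Serpinb6b was highest in mesothelial cells at 377 ± 189 CPM. Serpinb6a was broad, with 773 ± 120 CPM in myonuclei and 734 ± 68.6 CPM in fibroblast-like cells. Serpinb6c was highest in perineurial cells at 42.1 ± 12.1 CPM and Serpinb1c in myonuclei at 23.9 ± 12.6 CPM, where every other class was below 1 CPM. Serpind1, heparin cofactor 2, reached 11.1 ± 8.25 CPM in myelinating Schwann cells, and Serpina3c reached 25.4 ± 9.38 CPM in the Dmkn-high subgroup of fibroblast-like cells.

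The comparison of Arom with WT mice asked which serpins change with the transgene and in which cells. Over the 14 classes, 159 pairs of a member and a class were tested outside the genes listed at 0, and 24 were higher and 1 lower in Arom mice. Over the 9 subgroups, 10 of 118 pairs were higher and 2 lower. These calls covered 17 members and 9 classes. Among all genes, the share called ran from 0% in dendritic cells to 18.8% in endothelial cells. Over the subgroups it ran from 0% in Mmp3-high cells to 10.1% in Esr1-high cells. Endothelial and fibroblast-like cells, with shares of 18.8% and 13.1%, held 9 and 4 of the class calls. The totals have no single background, so they say little about the family. The p-values measure the spread between 3 mice per group, and of the 37 called values 7, all in endothelial cells, kept their call whichever mouse was left out. Without Arom mouse 3, 36 of the 37 kept their call, and without any one of the other mice 9 to 17 did.

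**Figure D2:**
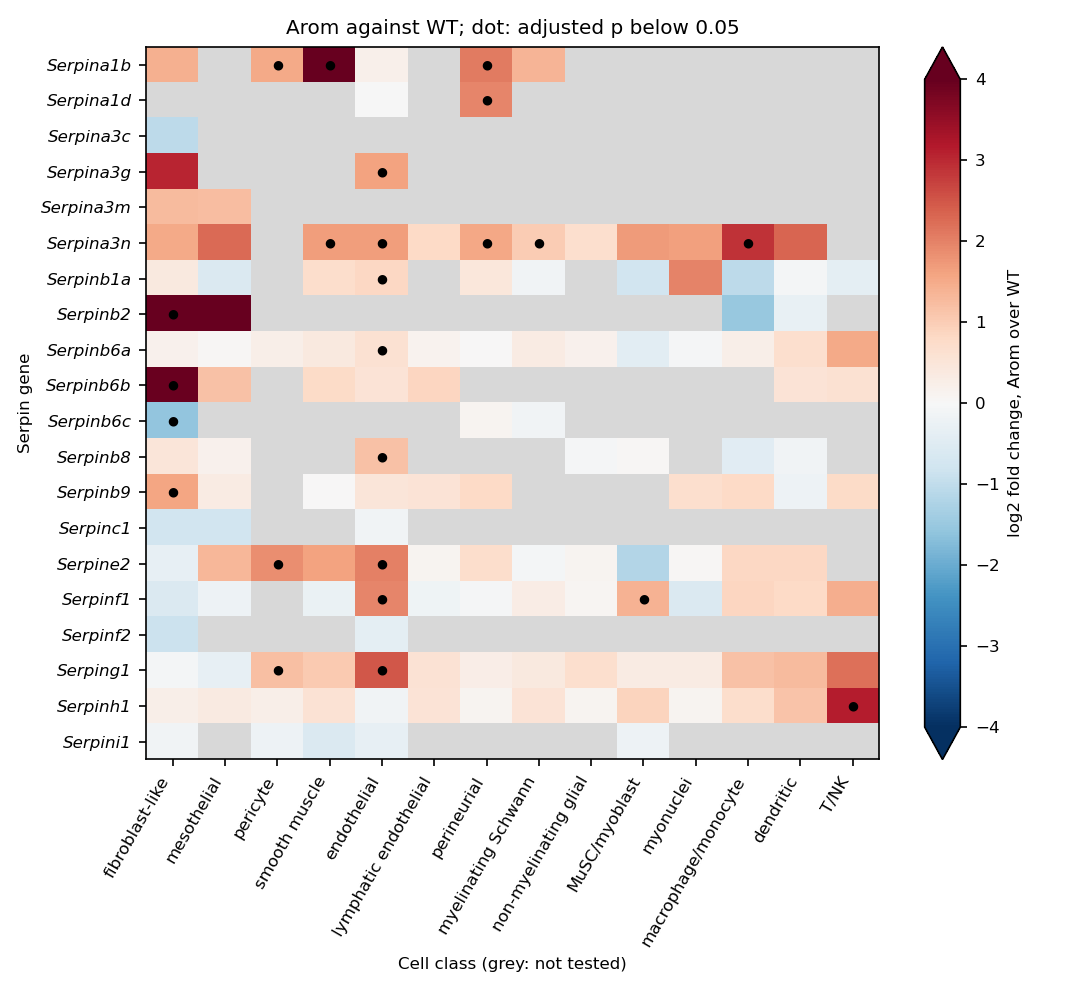
Log2 fold change of Arom over WT for tested Serpin genes (vertical axis) in 14 cell classes (horizontal axis), with a dot where the adjusted p was below 0.05 and grey where a gene was not tested; colours saturate at 4. Dots fill much of the endothelial column, and the Serpina3n row is red in every class in which it was tested.

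In fibroblast-like cells, the cells with most of the serpin RNA, edgeR called 4 members, all of them of the intracellular clade B. The clade B members Serpinb1a, Serpinb6a and Serpinb8 were tested and not called, nor were the abundant secreted members and the chaperone. DESeq2 called 8 members, among them the secreted Serpinf1 and Serpina3n. The share of all genes that DESeq2 called is not given, so that count has no background here. The shares below are those of edgeR. Of 20 members tested outside the genes listed at 0, 3 were higher (Serpinb2, Serpinb6b and Serpinb9) and 1 was lower (Serpinb6c), beside 13.1% of all 13945 genes tested (7.56% higher and 5.52% lower). Since 4 of 20 is not far from that background, the count itself says little about the family. Their median log2 fold change was 0.30, against 0.01 for all genes.

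Serpinb2 had 0.363, 0.461 and 0.381 CPM in WT mice and 66.5, 97.8 and 0.782 CPM in Arom mice. Arom mice 1 and 2 were far above all WT mice, and Arom mouse 3 was barely so. The log2 fold change was 7.09 ± 1.70 (SE, adjusted p = 0.0415). Markers of macrophages, the class with the highest Serpinb2, had a median in fibroblast-like cells of at most 0.112% of their macrophage level in any mouse. Without Arom mouse 3 the call stayed, and without any one of the other mice its adjusted p was 0.107 to 0.138.

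Serpinb2 in Arom mice was highest in the Dmkn-high subgroup, fibroblast-like cells that also express Pi16 and Dpp4, and in the Mmp3-high subgroup. In Dmkn-high cells Serpinb2 had 1.36, 0 and 0 CPM in WT mice and 199, 266 and 10.1 CPM in Arom mice, all of which lay above the WT mice. The fitted log2 fold change of 7.51 ± 1.39 (SE, adjusted p = 0.0282) rests on 2 WT mice without a UMI and depends on the prior count. In Mmp3-high cells, of which WT mouse 2 had only 4, the values were 0 and 0 CPM in the other 2 WT mice and, with that mouse left out of the fit, 177, 183 and 1.43 CPM in Arom mice, with an adjusted p of 0.144. The call in Dmkn-high cells was lost under the limits on cells that the study's methods state (adjusted p = 0.0865), which keep cells with at most 2500 genes.

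Serpinb9, which protects cells from granzyme B, had 11.5, 11.4 and 8.83 CPM in WT fibroblast-like cells and 32.2, 45.7 and 16.9 CPM in Arom cells. Every Arom mouse was above every WT mouse, with a log2 fold change of 1.57 ± 0.34 (SE, adjusted p = 0.0345). Serpinb6b, a copy of Serpinb6a, had 3.07, 0.587 and 1.97 CPM in WT mice and 27.0, 57.4 and 4.75 CPM in Arom mice. The groups did not overlap, Arom mouse 3 was again lowest of its group, and the log2 fold change was 3.96 ± 0.96 (SE, adjusted p = 0.0426). With the replicate number as a block its adjusted p was 0.0615, and without the filter on low counts it was 0.0508. Serpinb6c, another copy, went the other way, from 2.41, 5.03 and 4.70 CPM to 1.2, 1.4 and 1.47 CPM, and fell by 1.56 ± 0.30 on the log2 scale (SE, adjusted p = 0.0268). Under the stated limits on cells 0 members were called in fibroblast-like cells. The log2 fold change of Serpinb6c there was -0.22 (adjusted p = 0.842) and that of Serpinb9 was 0.94 (adjusted p = 0.233). Serpinb2 and Serpinb6b were not tested in the class under these limits.

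The makeup of the fibroblast-like class differed between the groups along with these values. The Esr1-high subgroup made up 4.95% to 10.9% of the class in WT mice and 18.9% to 28.7% in Arom mice. With the cells of all mice pooled, it had the highest Serpinb6b of the subgroups compared, at 65.2 CPM against 22.5 CPM in Mmp3-high cells and 0.584 CPM in Tppp3 Myoc cells. Serpinb9, pooled in the same way, was also higher in Esr1-high cells, at 49.98 CPM against 12.9 CPM in Tppp3 Myoc cells. The Mup5 Gdf10 subgroup had the most Serpinb6c, at 7.37 CPM pooled. It made up 26.8% to 34.6% in WT mice and 4.67% to 16.2% in Arom mice. Such pooled levels mix subgroup with genotype, since Esr1-high cells numbered 384, 119 and 110 in WT mice and 1398, 1787 and 652 in Arom mice. Within the subgroups in which they were tested, Serpinb6b and Serpinb6c were not called, with log2 fold changes of 2.01 ± 0.75 (SE, adjusted p = 0.122) for Serpinb6b in Esr1-high cells and -1.09 ± 0.54 (SE, adjusted p = 0.457) for Serpinb6c in Mup5 Gdf10 cells. In Mmp3-high cells their edgeR adjusted p was 0.11 and 0.175. With 1 mouse left out, the log2 fold changes there were 5.98 to 10.59 for Serpinb6b and -1.14 to -0.74 for Serpinb6c. The Mmp3-high share, where Serpinb2 was also high, was 0.167% to 16.4% in WT mice and 22.9%, 30.4% and 2.85% in Arom mice. How much of the class-level changes goes with this makeup was not tested.

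Among secreted members in fibroblast-like cells, Serpina3n had 226, 153 and 218 CPM in WT mice and 694, 780 and 230 CPM in Arom mice. Arom mouse 3 was close to the highest WT mouse, and the log2 fold change of 1.51 ± 0.43 (SE) had an adjusted p of 0.0587. DESeq2 called Serpina3n with all mice (1.504, adjusted p = 0.00106), and without Arom mouse 3 edgeR called it too (1.87, adjusted p = 0.00116). Serpinf1, an inhibitor of vessel growth, had 3091, 2892 and 3099 CPM in WT mice and 1998, 1659 and 2383 CPM in Arom mice. The groups did not overlap, while the log2 fold change of -0.59 ± 0.16 (SE) had an adjusted p of 0.0559. Serping1 and Serpinh1 had log2 fold changes of -0.07 ± 0.23 and 0.22 ± 0.16 (SE) and overlapped between the groups.

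**Figure D3:**
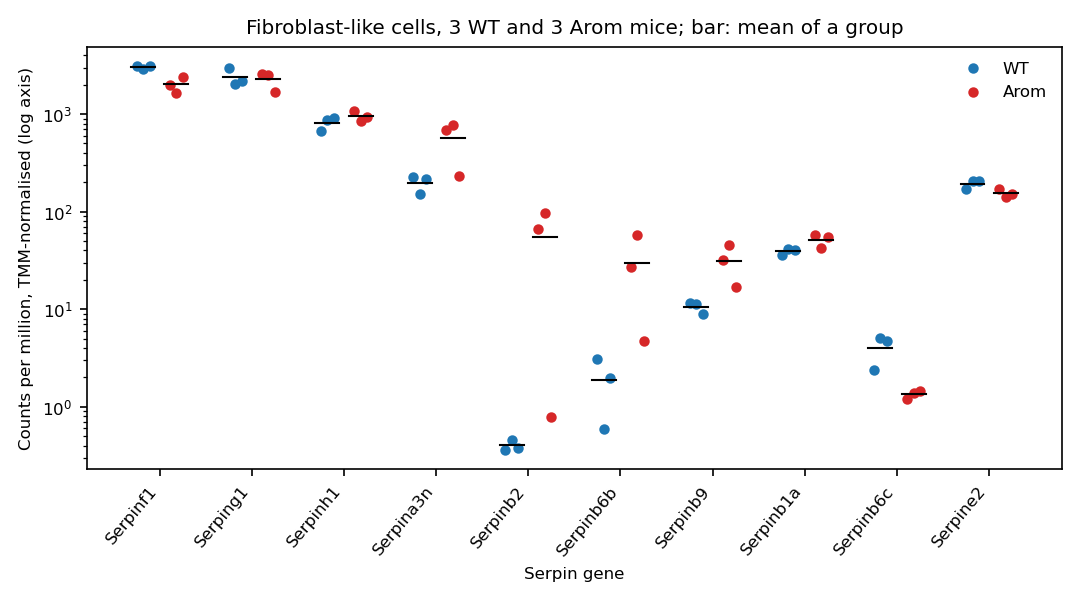
Level of Serpin genes in fibroblast-like cells, as CPM after TMM normalisation on a log axis; each point is a mouse (blue WT, red Arom, 3 each) and each bar a group mean. For Serpinb2, Serpinb6b and Serpina3n, 2 Arom mice stand well above WT and Arom mouse 3 lies near WT.

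The subgroups of fibroblast-like cells showed further members. In Esr1-high cells, which express the estrogen receptor, 2 of 13 members were higher and 1 was lower, beside 10.1% of all genes. Serpinf1 there had 3554, 3090 and 2686 CPM in WT mice and 1911, 1597 and 2181 CPM in Arom mice. No Arom mouse reached the lowest WT mouse, and the level fell by 0.71 ± 0.18 on the log2 scale (SE, adjusted p = 0.0454). Serpinb1a rose there from 2.40, 2.02 and 3.59 CPM to 22.3, 13.9 and 6.71 CPM, a log2 fold change of 2.48 ± 0.57 (SE, adjusted p = 0.0343). Serpinb9 rose in the same cells by 1.21 ± 0.29 (log2, SE, adjusted p = 0.0393). The calls of Serpinf1 and Serpinb9 were lost under the stated limits on cells, with adjusted p of 0.709 and 0.598, while their log2 fold changes there were -0.64 and 1.03. Serpinb1a in Esr1-high cells was not tested under these limits. Without the filter on low counts Serpinf1 was not called either (-0.67, edgeR adjusted p = 0.0583).

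Serpina3n was called in Dmkn-high cells, where 2 of 11 members were called beside 2.21% of all genes. It had 187, 108 and 217 CPM in WT mice and 1423, 1346 and 291 CPM in Arom mice, and all Arom mice were above all WT mice. The log2 fold change was 2.58 ± 0.50 (SE, adjusted p = 0.0325). In Tppp3 Myoc cells, with 2 of 14 members called beside 5.7% of all genes, Serpina3n rose by 0.90 ± 0.19 (log2, SE, adjusted p = 0.0246) and its neighbour Serpina3c fell by 1.29 ± 0.27 (log2, SE, adjusted p = 0.0238). In tenocytes, with 1 of 9 called beside 0.995% of all genes, Serpina3n had 74.1, 56.7 and 86.9 CPM in WT mice and 184, 148 and 122 CPM in Arom mice, a log2 fold change of 1.06 ± 0.19 (SE, adjusted p = 0.0339). Each of these Serpina3n calls was lost under the stated limits on cells, where the log2 fold change was 1.97, 0.56 and 0.70 and the adjusted p was 0.366, 0.0975 and 0.512. The Serpina3c call was lost there too (-1.50, adjusted p = 0.0765). No member was called by edgeR in the Mmp3-high or the Mup5 Gdf10 subgroup, where 0% and 0.248% of all genes were called. An unadjusted p below 0.05 was seen for 9 and 2 members, and the share of all genes at that threshold is not given. DESeq2 called Serpina3n in Mmp3-high cells (2.15, adjusted p = 0.002).

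Across the tissue, Serpina3n was the member with the most even direction. Its fitted change was positive in 12 of 12 classes tested and called in 5 of them. In smooth muscle cells, with 2 of 12 members called beside 1.43% of all genes, it had 36.2, 28.5 and 30.0 CPM in WT mice and 75.0, 155 and 69.8 CPM in Arom mice. In perineurial cells, the sheath cells of nerves, it had 60.2, 59.6 and 80.2 CPM in WT mice and 235, 273 and 105 CPM in Arom mice. In both classes the groups did not overlap, with log2 fold changes of 1.66 ± 0.30 (SE, adjusted p = 0.0331) and 1.55 ± 0.28 (SE, adjusted p = 0.0417). The perineurial call was lost with at most 5% mitochondrial UMIs (1.45, adjusted p = 0.253) and at a Leiden resolution of 1.2 (1.67, adjusted p = 0.0586). In myelinating Schwann cells, where it was the only member called of 10 beside 0.526% of all genes, the log2 fold change was 1.01 ± 0.19 (SE, adjusted p = 0.0413), and without marked doublets it was 0.94 (adjusted p = 0.175).

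Fibroblast RNA in other classes bears on these values, since Serpina3n is abundant in fibroblast-like cells. The median level of 8 fibroblast markers was 5.77% to 12.2% of the fibroblast level in WT smooth muscle cells and 9.53% to 15.4% in Arom ones, while Serpina3n stood at 13.3% to 16.9% and 11.2% to 28.3%. In myelinating Schwann cells the markers did not separate the groups, at 19.5% to 20.8% and 17.9% to 24.6%. In perineurial cells they were lower in Arom mice, at 49.2% to 63.4% in WT and 33.0% to 45.0% in Arom mice. The part of fibroblast RNA in the Serpina3n changes was not tested.

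In macrophages and monocytes Serpina3n had 13.6, 12.3 and 4.19 CPM in WT mice and 81.3, 118 and 44.1 CPM in Arom mice, with a log2 fold change of 2.90 ± 0.43 (SE, adjusted p = 0.0273). It was the only member called of 11, beside 0.462% of all genes. The fibroblast markers in these cells stood at 5.16% to 8.39% of the fibroblast level in WT mice and 12.9% to 17.1% in Arom mice, and Serpina3n at 1.80% to 7.86% and 11.5% to 18.9%. The call was lost under several alternatives, with a log2 fold change of 1.56 without marked doublets (adjusted p = 0.555), 2.71 at a Leiden resolution of 0.4 (adjusted p = 0.213), 2.09 in classes made from the runs of columns in the deposited table (adjusted p = 0.449) and 2.87 with at most 5% mitochondrial UMIs (adjusted p = 0.0923). In the macrophage cluster led by Folr2 and Cd163, Serpina3n had 11.5 and 38.2 CPM in WT mice 1 and 3 and 160, 410 and 119 CPM in Arom mice, with 123 and 13 cells in those WT mice, 7 in WT mouse 2 and 632, 107 and 18 in Arom mice. In the cluster led by Il10 and Ms4a7 it stood at 0 to 16.1 CPM in WT mice and 15.7 to 18.3 CPM in Arom mice. Pooled over the mice, the first of these clusters also held more of the fibroblast-rich members, with Serpinf1 at 622 against 76.2 CPM and Serping1 at 835 against 66.5 CPM. Serpinb2, in contrast, had 595, 299 and 1244 CPM in WT macrophages and 277, 221 and 253 CPM in Arom ones, with no overlap and an adjusted p of 0.281. A macrophage cluster of 39 cells, led by Alox15 and Cd5l, held Serpinb2 at 3100 CPM pooled over the mice. The cluster led by Il10 held 320 CPM and that led by Folr2 75.1 CPM. The small cluster made up 6.11%, 2.19% and 9.72% of the class in WT mice and 0.743%, 0.226% and 1.33% in Arom mice. How much of the Serpinb2 difference goes with this makeup was not tested.

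**Figure D4:**
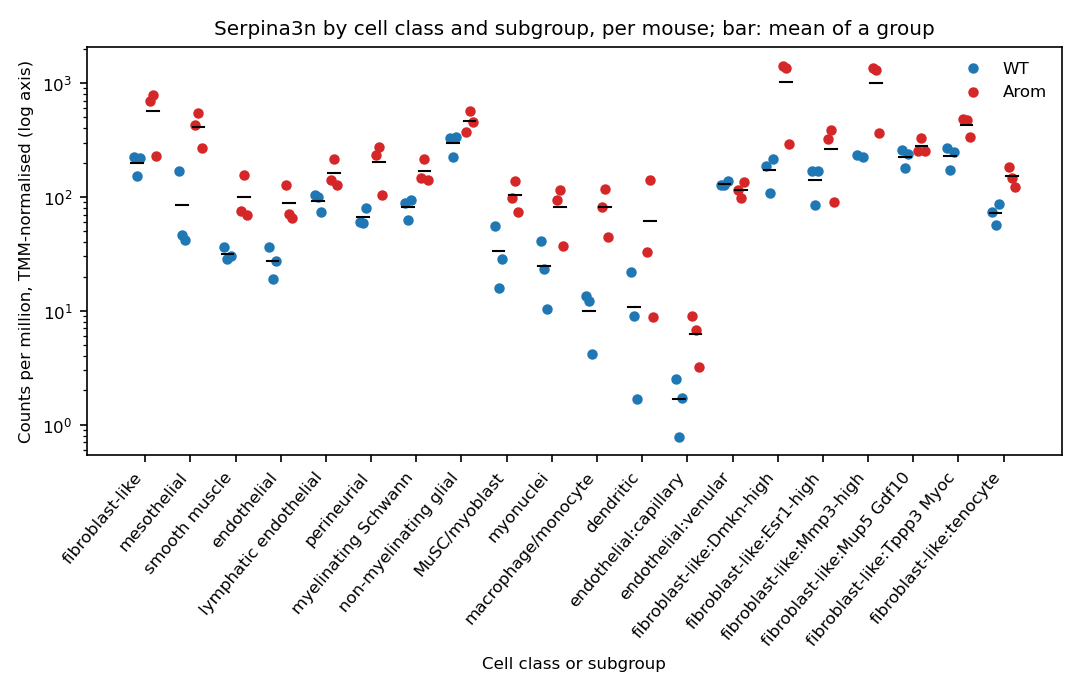
Serpina3n level in each tested cell class and subgroup, as CPM after TMM normalisation on a log axis; each point is a mouse (blue WT, red Arom) and each bar a group mean. Arom mice lie above WT mice in most classes, and the venular endothelial subgroup shows no such gap.

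Endothelial cells had the most calls. Of 17 members tested, 9 were higher and none was lower, beside 18.8% of all 12512 genes tested (10.6% higher and 8.21% lower). An unadjusted p below 0.05 was seen for 10 members, and the share of all genes at that threshold is not given. Among the 9 called were Serpina3n, Serpinb6a, Serpina3g, Serpinb1a, Serpinb8, Serping1, Serpine2 and Serpinf1. With the replicate number as a block, 10 members were called, and the share of all genes called with it is not given. The labels do not give this pairing, and same-numbered mice deviated together only weakly in these cells, with correlations of 0.14, 0.15 and 0.29.

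Serpinb1a, the elastase inhibitor, had 44.5, 49.5 and 56.9 CPM in WT mice and 115, 77.7 and 77.2 CPM in Arom mice. Serpina3n had 36.4, 18.9 and 27.2 CPM in WT mice and 128, 70.8 and 65.5 CPM in Arom mice. For both, every Arom mouse was above every WT mouse, with log2 fold changes of 0.84 ± 0.17 (SE, adjusted p = 0.0134) for Serpinb1a and 1.69 ± 0.30 (SE, adjusted p = 0.00774) for Serpina3n. Serpinb6a, which guards against granule proteases, rose by 0.62 ± 0.12, Serpinb8 by 1.16 ± 0.26 and the cathepsin inhibitor Serpina3g by 1.62 ± 0.33 (log2, SE), with adjusted p of 0.0116, 0.0186 and 0.0123. Serpinh1 overlapped between the groups, with a log2 fold change of -0.13 ± 0.16 (SE).

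Serping1, Serpinf1 and Serpine2 also rose in endothelial cells, in which fibroblast markers were higher in Arom mice as well. Serping1 had 27.0, 21.3 and 17.6 CPM in WT endothelial cells and 183, 130 and 58.2 CPM in Arom ones, and Serpinf1 had 31.0, 23.9 and 28.8 CPM and 125, 104 and 95.0 CPM. The log2 fold changes were 2.50 ± 0.37 (SE, adjusted p = 0.00438), 1.96 ± 0.15 (SE, adjusted p = 0.000826) and, for Serpine2, 2.03 ± 0.23 (SE, adjusted p = 0.00189). The 8 fibroblast markers stood at a median of 0.90%, 1.46% and 1.01% of their fibroblast level in WT mice and 7.87%, 7.39% and 4.39% in Arom mice, and all 8 were called higher. Serping1 stood at 0.79% to 1.00% of its fibroblast level in WT mice and 3.28% to 7.43% in Arom mice. Serpine2 lay above the marker shares in every mouse, at 2.08% to 3.20% in WT mice and 9.03% to 19.6% in Arom mice. How much of these changes goes with fibroblast RNA was not tested.

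**Figure D5:**
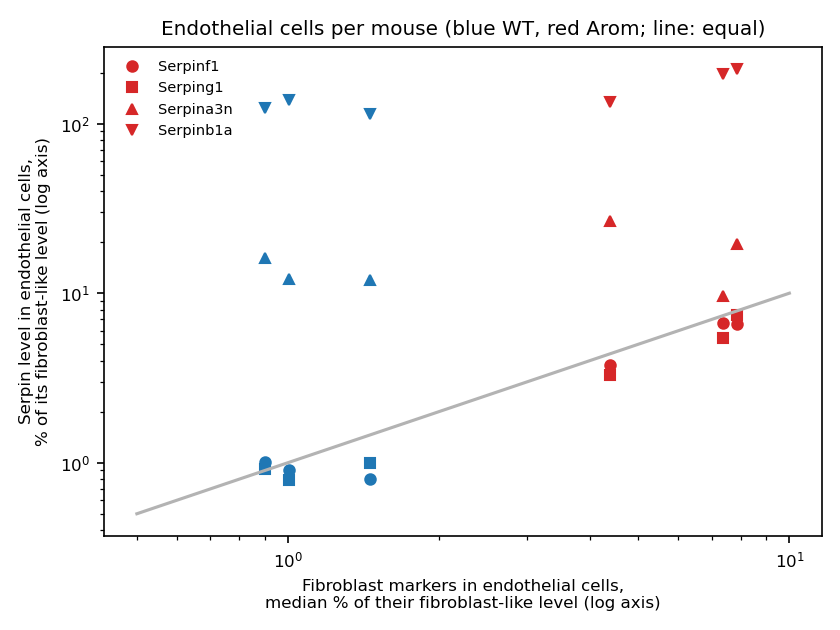
Serpin level in endothelial cells against the median level of 8 fibroblast markers in the same cells, both as percent of the level in fibroblast-like cells of the same mouse on log axes, with 1 point per mouse and gene (blue WT, red Arom; grey line, equal percent). Serpinf1 and Serping1 lie near the line in all 6 mice, while Serpina3n and Serpinb1a lie above it.

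In Arom mice most of that fibroblast RNA was in 1 cluster of cycling cells, led by Ube2c, Cenpf and Birc5, which was named endothelial by its markers and held 408 cells. It made up 0.499%, 1.85% and 1.12% of endothelial cells in WT mice and 5.03%, 4.24% and 3.85% in Arom mice, and within it Serping1 stood at 159 to 289 CPM in WT mice and 363 to 1158 CPM in Arom mice. Leaving this cluster out was an alternative chosen after seeing the data. Without it the fibroblast markers stood at 0.450% to 0.732% in WT mice and 0.911% to 1.26% in Arom mice. In that fit 8 members were called, and the share of all genes called in it is not given.

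Without the cycling cluster Serpina3n had a log2 fold change of 1.28 (adjusted p = 0.00785), Serpinb1a of 0.95 (adjusted p = 0.0107) and Serpinb6a of 0.68 (adjusted p = 0.0101). In plain CPM, Serping1 had 22.0, 12.9 and 11.6 in WT mice and 23.3, 35.9 and 27.3 CPM in Arom mice, and its log2 fold change went from 2.50 to 0.91 (adjusted p = 0.0355). Serpinf1 and Serpine2 were no longer called, with log2 fold changes of 0.72 (adjusted p = 0.0631) and 0.71 (adjusted p = 0.108), while Serpinb9 was called, with 0.66 (adjusted p = 0.0444).

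Other groupings of the cells also ended the calls of Serping1, Serpinf1 and Serpine2. At a Leiden resolution of 0.4 the log2 fold changes were 0.96 (adjusted p = 0.154) for Serping1 and 0.34 (adjusted p = 0.31) for Serpinf1. In classes from column runs they were 1.08 (adjusted p = 0.139), 0.81 (adjusted p = 0.217) and, for Serpine2, 0.63 (adjusted p = 0.155). Serpine2 also lost its call under the stated limits on cells, at 1.36 (adjusted p = 0.0664).

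The kinds of vessel cell also differed in number between the groups. Venular cells made up 14.3%, 7.06% and 11.9% of endothelial cells in WT mice and 39.7%, 29.0% and 27.5% in Arom mice, while capillary cells went from 57.7%, 62.4% and 66.1% to 30.0%, 42.2% and 39.5%. Serpina3n stood at 122 ± 11.1 CPM (SD, n = 6) in venular cells and at 4.01 ± 3.25 CPM in capillary cells. Within venular cells it had 127, 128 and 137 CPM in WT mice and 115, 96.9 and 135 CPM in Arom mice, so the groups overlapped and the log2 fold change was -0.17 ± 0.14 (SE). Within capillary cells the log2 fold change was 1.89 ± 0.46 (SE, adjusted p = 0.0561) at a few CPM. With the replicate number as a block, the capillary value was called (1.84, adjusted p = 0.00571). How much of the Serpina3n rise over all endothelial cells goes with the larger venular share was not tested.

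With the cells of all mice pooled, other members called over all endothelial cells were also higher in venular cells than in the largest capillary cluster. These pooled levels mix vessel kind with genotype, since more of the venular cells came from Arom mice and more of that capillary cluster from WT mice. Serpinb8 stood at 31.6 against 3.60 CPM, Serpina3g at 7.09 against 0.0327 CPM, Serpinb6a at 614 against 272 CPM and Serpinb1a at 105 against 47.4 CPM. None of these members was called within a vessel subgroup in which it was tested. In venular cells the log2 fold changes were 0.20 ± 0.24 for Serpinb8, 0.31 ± 0.30 for Serpina3g, 0.25 ± 0.12 for Serpinb6a and 0.92 ± 0.25 for Serpinb1a (SE), with adjusted p of 0.715, 0.633, 0.302 and 0.094. In capillary cells Serpinb6a had 0.27 ± 0.11 (SE, adjusted p = 0.318) and Serpinb1a 0.37 ± 0.14 (SE, adjusted p = 0.236). How much of their change goes with the venular share was not tested.

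In venular cells 14 members were tested and 1.15% of all genes were called. In capillary cells 3 of 13 members were called, beside 1.77% of all genes. Among these were Serping1 at 1.12 ± 0.19 and Serpinf1 at 0.86 ± 0.19 (log2, SE), at levels of 9.74 to 30.5 CPM. Both calls were lost under the stated limits on cells, with log2 fold changes of 0.96 (adjusted p = 0.0563) for Serping1 and 0.71 (adjusted p = 0.326) for Serpinf1. In arterial cells 0 of 13 members were called by edgeR, beside 0.113% of all genes. An unadjusted p below 0.05 was seen for 4 members, and the share of all genes at that threshold is not given.

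In pericytes 3 of 7 members were higher, beside 0.502% of all genes. Only 70 of the 1214 pericytes met the stated limits on cells, too few per mouse to repeat the test. The same held for smooth muscle cells, with 173 of 2202. A deeper cluster of 2768 cells led by Rgs5 and Cox4i2 stayed unnamed. Pooled over the mice, it held Serpine2 at 71.9 CPM and Serpina1b at 27.6 CPM, against 350.6 and 150.5 CPM in the named pericytes. Serpine2, an inhibitor of thrombin and urokinase, had 273, 169 and 211 CPM in WT mice and 1212, 856 and 321 CPM in Arom mice. All Arom mice were above all WT mice, with a log2 fold change of 1.86 ± 0.32 (SE, adjusted p = 0.00754), and DESeq2 gave an adjusted p of 0.116. Serping1 rose there from 256, 290 and 300 CPM to 969, 622 and 377 CPM and Serpina1b from 92.0, 126 and 86.1 CPM to 461, 316 and 136 CPM. Their log2 fold changes were 1.19 ± 0.25 (SE, adjusted p = 0.0332) and 1.5 ± 0.31 (SE, adjusted p = 0.0329). In classes from column runs the 3 pericyte calls were lost, with log2 fold changes of 1.40 for Serpine2 (adjusted p = 0.122), 0.85 for Serping1 (adjusted p = 0.437) and 1.11 for Serpina1b (adjusted p = 0.285). Serping1 was also lost at a Leiden resolution of 0.4 (1.23, adjusted p = 0.0528). Fibroblast markers in pericytes stood at 1.17% to 1.84% in WT mice and 2.16% to 4.17% in Arom mice, and Serpine2 in pericytes exceeded the fibroblast level in every Arom mouse.

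The antitrypsin Serpina1b rose in pericytes, smooth muscle cells and perineurial cells, and Serpina1d in perineurial cells. In perineurial cells, with 3 of 12 members called beside 0.249% of all genes, Serpina1b had 45.8, 58.6 and 45.2 CPM in WT mice and 266, 281 and 106 CPM in Arom mice, and Serpina1d had 7.23, 8.94 and 6.07 CPM and 24.4, 43.0 and 23.5 CPM. Both were higher in every Arom mouse than in any WT mouse, with log2 fold changes of 2.09 ± 0.30 (SE, adjusted p = 0.00845) and 1.95 ± 0.35 (SE, adjusted p = 0.0353). With at most 5% mitochondrial UMIs Serpina1b was not called (3.14, adjusted p = 0.11), and DESeq2 gave no adjusted p for Serpina1d. Their shared sequence means that these are not independent measurements. In smooth muscle cells Serpina1b had 13.3, 0 and 3.89 CPM in WT mice and 297, 263 and 21.6 CPM in Arom mice (adjusted p = 0.0379). It was found mainly in the smooth muscle cluster led by H2-M9 and Actg2, at 0 to 33.1 CPM in WT mice and 49.3 to 445 CPM in Arom mice, and that cluster was 30.8% to 47.3% of the class in WT mice and 43.8% to 63.8% in Arom mice. At a Leiden resolution of 0.4 the cluster led by H2-M9 and Actg2 was named pericyte.

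A single member was called in muscle stem cells and in T and NK cells. Serpinf1 in muscle stem cells and myoblasts, the only call among 10 members beside 2.94% of all genes, had 45.3, 27.5 and 37.1 CPM in WT mice and 110, 114 and 58.7 CPM in Arom mice, a log2 fold change of 1.39 ± 0.27 (SE, adjusted p = 0.0365). That call was lost under several alternatives, with 1.46 under the stated limits on cells (adjusted p = 0.184), 1.35 without marked doublets (adjusted p = 0.0544), 1.07 at a Leiden resolution of 0.4 (adjusted p = 0.068) and 0.97 in classes from column runs (adjusted p = 0.184). Serpina3n in the same cells was called with the replicate number as a block (1.75, adjusted p = 0.029) and by DESeq2 (1.65, adjusted p = 0.000462), and Serpinh1 with the block (0.92, adjusted p = 0.0476). The deviations of same-numbered mice correlated at 0.22, 0.07 and 0.13 in these cells. The share of Serpinf1 in these cells, against the fibroblast level, was 0.880% to 1.51% in WT mice and 2.22% to 7.39% in Arom mice, and that of the fibroblast markers was 0.467% to 0.851% and 1.17% to 5.81%. Serpinh1 in T and NK cells, the only call among 8 members beside 0.418% of all genes, had 48.9, 23.7 and 65.0 CPM in WT mice and 555, 337 and 208 CPM in Arom mice (adjusted p = 0.0424). In classes from column runs its log2 fold change was 1.15 (adjusted p = 0.689). The fibroblast markers there stood at 0.565% to 13.2% in WT mice and 7.88% to 41.9% in Arom mice, and the class held 21 to 54 cells per WT mouse. Whether fibroblast RNA accounts for either value was not tested.

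No member outside the genes listed at 0 was called by edgeR in 5 classes. These were mesothelial cells (0.222% of all genes called, 8 members with an unadjusted p below 0.05), lymphatic endothelial cells (0.0651%, 4 members), myonuclei (0.0797%, 2 members), non-myelinating glial cells (0.1%, 1 member) and dendritic cells (0%, 3 members). The shares of all genes are at the adjusted threshold, so they are no background for the counts of members at unadjusted p. In myonuclei Serpinb1a had 36.4, 22.1 and 32.3 CPM in WT mice and 188, 107 and 59.3 CPM in Arom mice, with an adjusted p of 0.114. With the replicate number as a block some members were called in these classes, among them Serpinb1a (1.96, adjusted p = 0.00675) and Serpina3n (1.75, adjusted p = 0.00803) in myonuclei and Serpina3n (2.50, adjusted p = 0.0321) and Serpinb2 (7.83, adjusted p = 0.00562) in mesothelial cells. Whether same-numbered mice deviate together was not examined in these classes. DESeq2, without the block, called each of these as well, with adjusted p of 0.000399 for Serpinb1a and 0.0275 for Serpina3n in myonuclei and 0.0281 for Serpina3n and 0.00326 for Serpinb2 in mesothelial cells.

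Whether a member changed more in fibroblast-like cells than in another class was tested with the mouse as a block. Against endothelial cells, 7 of 25 members differed, beside 14.7% of all genes, with a more positive change in fibroblast-like cells for Serpinb9 and a more negative one for 6 members. Against smooth muscle cells 4 of 22 members differed, beside 2.44% of all genes. Against non-myelinating glial and mesothelial cells edgeR called none of 22 and 24 members, beside 0.495% and 1.78% of all genes. For Serpina3n no difference was called against any of these classes, with -1.12 ± 0.44 against mesothelial, 0.69 ± 0.34 against non-myelinating glial, -0.37 ± 0.36 against endothelial and -0.25 ± 0.32 against smooth muscle cells (log2, SE).

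The partners of serpins in fibroblast-like cells were described from 3 lists, beside the 7.56% of all genes called higher and 5.52% called lower in these cells. Of 34 proteases that serpins inhibit or are cleaved by, 18 were tested, and Htra1 (1.12), Masp1 (2.02) and Ctsb (0.57) were higher and none was lower. Of 22 cofactors and receptors, 20 were tested, with F2rl1, Gpc1, Sdc1 and Anxa2 higher and F3 (-1.04), Pnpla2 (-0.42) and Dcn (-0.81) lower. Pnpla2 is a receptor for the Serpinf1 protein. All 24 genes of procollagen assembly, the process that Serpinh1 serves, were tested, and 11 were higher, among them Plod2 (1.67), Col5a1 (0.89), Col3a1 (0.97) and Col1a1 (0.89), while Serpinh1 was not called. The median log2 fold changes of the 3 lists were 0.37, 0.09 and 0.41, against 0.01 for all genes.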

How the data were processed

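Cells of dissociated lower abdominal muscle from 3 WT and 3 Arom hum mice were sequenced with the 10x Genomics 3′ method. The authors aligned reads to the mouse mm10 reference with human CYP19A1 added, using Cell Ranger 3.0.2, and deposited 1 table of raw UMI counts per gene and barcode with no cell annotation. The table holds 63647 barcodes, more than the 18852 that pass the study's stated limits (200 to 2500 genes, at least 1000 UMIs, at most 5% mitochondrial UMIs), so it was taken to precede that filter.

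All barcodes were used. Cells were clustered with leidenalg 0.10.2 on a graph of shared neighbours (2000 variable genes without Serpin genes, 30 components, 20 neighbours, Leiden resolution 0.8) and named from marker lists. Doublets were marked per mouse with Scrublet in scanpy 1.11.5 (1.52% to 2.91%) and kept, and leaving them out was an alternative. Raw counts were summed per mouse and class. Classes with at least 20 cells per mouse, and subgroups with at least 10, were tested with edgeR 4.0.16 (TMM, filterByExpr, quasi-likelihood test, Benjamini-Hochberg adjustment over all genes tested, R 4.3.3). The SE was the log2 fold change divided by the root of F. Per-mouse values beside a test are TMM-normalised CPM, and levels are plain CPM. A level called pooled takes the cells of all mice together. Differences between classes were fitted with the mouse as a block. Tests were tried on simulated data.

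Members, lists and markers were chosen with earlier results of these data known. Members are named with values where a mean reached 10 CPM in a class or a call was made, and otherwise by name. The values of 1 member are not reported here, while counts over the family include it. Partner genes are named where called in fibroblast-like cells, at most 10 per list by adjusted p. The cell classes come from this rebuilt clustering and may differ from those of the study. Where labels gave replicate numbers, same-numbered mice deviated together weakly (all 3 correlations above 0.1) in endothelial cells, at 0.14, 0.15 and 0.29, and not in fibroblast-like cells, at 0.21, -0.13 and 0.17. Smooth muscle cells, at 0.18, 0.03 and 0.27, and muscle stem cells and myoblasts, at 0.22, 0.07 and 0.13, also missed that cut. Other classes were not examined, so whether equal numbers mark a pair is not known. Alternatives were DESeq2 1.42.0, RLE size factors, no filter, the replicate block, leaving out each mouse, the stated limits on cells, 5% mitochondrial UMIs, no doublets, other resolutions and limma 3.58.1 voom. Column runs of the table, genes listed at 0 and the cycling cluster were added after seeing the data. Positions are from GENCODE on GRCm38, promoter windows from RefSeq GRCm38.p6, aligned with biotite. Depth sets the precision: a CPM below 1 rests on few UMIs.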

Additional observations from a re-analysis of the deposited data

Results flagged for a closer look

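The changes of these members differed between fibroblast-like and endothelial cells by a test of the difference itself, given as fibroblast-like minus endothelial on the log2 scale. Serpinf1 differed by -2.6 ± 0.19 (SE, edgeR adjusted p = 0.000784), Serping1 by -2.5 ± 0.24 (adjusted p = 0.00134) and Serpine2 by -2.37 ± 0.26 (adjusted p = 0.00168). Fibroblast markers were also higher in endothelial cells of Arom mice, and their part in these differences was not tested. Without the cycling cluster the 3 differences were -1.32 (adjusted p = 0.00515), -1.04 (adjusted p = 0.0191) and -1.03 (adjusted p = 0.0664). Serpinb6a differed by -0.48 ± 0.12 and Serpinb6c by -3.41 ± 0.83, both with the more negative change in fibroblast-like cells. Serpinb6c fell there and was below the limit for testing in endothelial cells, at 0.111 to 0.285 CPM in WT mice and 0.203 to 1.38 CPM in Arom mice, while Serpinb9 differed by 0.96 ± 0.20. Without the cycling cluster Serpinb6c was no longer called (adjusted p = 0.115). Under the stated limits on cells only the Serpinf1 difference among those named here was still called (-1.38, adjusted p = 0.0431), with 0.24 for Serpinb9 (adjusted p = 0.6), -0.99 for Serping1 (adjusted p = 0.0849), -1.61 for Serpine2 (adjusted p = 0.0859), -0.41 for Serpinb6a (adjusted p = 0.263) and -1.28 for Serpinb6c (adjusted p = 0.614).

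Between fibroblast-like and smooth muscle cells, Serping1 differed by -1.13 ± 0.17 (adjusted p = 0.0111) and Serpine2 by -1.81 ± 0.38 (adjusted p = 0.0346). Serpinb6b differed by 2.96 ± 0.60 (adjusted p = 0.0328) and Serpinb9 by 1.49 ± 0.33 (adjusted p = 0.0433), both with the more positive change in fibroblast-like cells. The part of fibroblast RNA in the other classes in these differences was not tested.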

How the results depend on the processing

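The count of called members moved with the mice more than with the tool. The 25 calls over broad classes became 44 with DESeq2, 45 without a filter on low counts and 9 to 54 when 1 mouse was left out. For most alternatives the share of all genes called is not given. A shift in the calls of members can then not be told from a general one. They became 16 in 9 classes with at most 5% mitochondrial UMIs and 8 in 6 classes under the stated limits on cells, which leave fewer cells and classes. The 12 calls over subgroups became 22, 23 and 1 to 38, and 0 in 8 subgroups under the limits. The 11 differences between classes became 3 to 25 without 1 mouse and 1 in 1 comparison under the limits. In fibroblast-like cells the 4 called members became 8 with DESeq2, 0 under the limits and 0 to 11 without 1 mouse, the highest without Arom mouse 3, where all genes called went from 1824 to 4053. In endothelial cells 7 to 11 members were called under every alternative, beside 9. With the replicate number as a block the pairing gave 38 calls over classes and 19 over 8 subgroups. Changes of sign were looked for only among values with an unadjusted p below 0.05 in the main edgeR fit, outside the genes listed at 0. Those found were Serpine2 in macrophages by column runs (-0.34), Serping1 in macrophages without doublets (-0.29) and the Serpinb2 difference against non-myelinating glial cells without WT mouse 1 (-0.86, with a range of -0.86 to 5.45 over the mice left out), none of them called in the first place. The causes were not tested. A class of 21 to 54 cells per WT mouse, such as T and NK cells, gives imprecise values, and members near 1 CPM rest on few UMIs.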
